A study of Mus musculus with 6 samples.

Results

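Replication-dependent histone genes encode the linker histone H1 and the core histones H2A, H2B, H3 and H4. They lie in clusters on mouse chromosomes 13, 3, 11 and 6. Their levels were read in RNA-seq of sorted bone marrow LT-HSC, the long-term haematopoietic stem cells from which all blood lineages can be rebuilt. Members were taken by symbol: the older names Hist1h, Hist2h, Hist3h and Hist4h, or the newer names H1f1 to H1f6, H2ac, H2bc, H3c and H4c with a number. The RefSeq table held 70 such genes and the matrix held 69 of its 27179 genes. The remaining gene, H2ac14 (Hist1h2aj), is annotated as a pseudogene and was not analysed here. A member was called present where it reached 1 CPM (reads scaled to the size of the library) in at least 3 of the 6 libraries, which 37 members did. Of these, 29 reached 1 CPM in all 6 libraries.

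All mice were C57BL/6 adults aged 8 to 12 weeks, and all carried 2 conditional alleles of Prdm16, a zinc-finger transcriptional regulator of stem cells. The WT group (Prdm16-Mx1-Cko/Cko; +/+) lacked the Mx1-Cre transgene, and the Cko group (Prdm16-Mx1-Cko/Cko; Tg/+) carried 1 copy. Both groups had pIpC, given in 5 injections, which induces interferon and through it the Mx1 promoter in many cell types, and LT-HSC (Lin-Sca-1+c-Kit+CD48-CD150+) were sorted 5 weeks later. For each genotype the marrow of 5 mice was combined and then sorted into 3 technical replicates, so every p-value below measures the spread between portions of 1 pool, not between animals.

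Prdm16 itself stood at 40.33, 50.46 and 31.67 CPM in the WT libraries and at 8.739, 9.038 and 14.72 CPM in the Cko libraries, and the groups did not overlap. Libraries held 36747729 to 43743795 reads. The summed level of 7 LT-HSC identity genes overlapped between groups (2377 to 2531 CPM in WT, 2337 to 2624 CPM in Cko). Those of several mature cell types did not: 6 of 6 neutrophil markers (85.62 to 103.1 against 529.4 to 710.8 CPM) and 5 of 5 eosinophil markers (0.6239 to 0.8908 against 523.8 to 621.6 CPM) were called higher in Cko. The eosinophil markers Epx and Ear1 had 0 reads in every WT library. The summed basophil and mast cell markers ran from 11.94 to 13.76 CPM in WT and from 82.55 to 95.07 CPM in Cko, with 2 of 3 tested genes called higher. Of B and plasma cell genes, Igkc had 0 reads in every WT library and 114.3 to 124.3 CPM in Cko, and was called higher. Jchain ran from 0 to 1.089 CPM in WT and from 27.39 to 41.29 CPM in Cko, and Cd79a from 0.02293 to 0.2722 and from 2.922 to 5.125 CPM. Cd79b was lower in every Cko library (57.76 to 63.19 against 40.01 to 51.45 CPM), and Ms4a1 had 0 reads in every WT library and in Cko replicate 1. Jchain, Cd79a and Cd79b were not called. Granulocyte precursor markers ran from 203.8 to 216.1 and from 546.4 to 561.6 CPM, with 3 of 4 called higher. Erythroid markers overlapped (18.25 to 22.94 and 22.8 to 33.39 CPM), with 0 of 4 called. These shifts move with every group difference given below, and their part in the histone results was not tested. In bulk RNA, fewer cells of a type and less RNA per cell cannot be told apart.

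As background, cells make these histones mainly in S phase, to package newly copied DNA. Their genes lack introns as a rule, and their messages usually end not in a poly(A) tail but in a short stem-loop that the stem-loop binding protein, Slbp, holds. The stem-loop directs cleavage by the U7 small nuclear ribonucleoprotein and couples the message to rapid decay when replication stops. Some of these genes also give polyadenylated messages from a signal further downstream, chiefly in resting or differentiating cells. Stem cells of adult marrow are mostly quiescent. Whether the libraries were made from polyadenylated or total RNA after extraction is not given in the sources used here, and a step that selects poly(A) tails would leave out most messages that end at the stem-loop.

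The stem-loops are shown because they are the feature by which these messages are processed. They were sought as a stem of 6 base pairs that opens with GG, around a loop of 4 bases, TNTN, in the 100 bases after the stop codon of GENCODE transcripts (release M21, GRCm38). Of 67 members with a coding transcript, 46 held one (68.7%), against 9 of 22460 other genes (0.04%). A further 15 of the members ended too soon after the stop codon for the search, in this annotation. The 46 stem-loops had 8 distinct forms and began 21 to 58 bases after the stop codon (median 31). Below, 6 members are given 5′ to 3′ on the gene's strand, with the stem and loop in capitals.
H1f4, chr13:23621777-23621802, minus strand: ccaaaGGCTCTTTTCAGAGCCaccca
H2ac8, chr13:23570663-23570688, minus strand: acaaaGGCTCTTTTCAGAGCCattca
H2bc8, chr13:23571838-23571863, plus strand: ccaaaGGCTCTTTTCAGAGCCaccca
H3c4, chr13:23576239-23576264, plus strand: ccaaaGGCTCTTTTCAGAGCCacccc
H4c4, chr13:23581945-23581970, plus strand: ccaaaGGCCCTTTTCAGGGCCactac
H4c9, chr13:22040961-22040986, minus strand: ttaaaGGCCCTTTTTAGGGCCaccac

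The form of the first 4 of these was the most common, in 26 members, and the form of H4c4 was in 7. The H4c9 form was in 2 members. In all 6 of these genes a GENCODE transcript ran on past the stem-loop, by 151 bases in H2ac8, 155 in H2bc8, 330 in H4c9, 752 in H3c4, 770 in H4c4 and 1153 in H1f4.

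The upstream sequences are shown because H2A and H2B genes often share one. In RefSeq promoters of 300 bases (250 before and 50 after the start, GRCm38.p6), 63 promoters matched 62 members. The octamer ATTTGCAT, on either strand, was in 7 of 18 H2A and 7 of 17 H2B promoters and in 0 of the 6 H1, 10 H3 and 12 H4 promoters. It was in 1.74% of all 32851 promoters of this length. CCAAT was in all H1, H2A, H2B and H3 promoters and in 3 of 12 H4 promoters (37.41% of all promoters). TATAAA was in 55.6% of the members' promoters and 13.62% of all, and the E2F motif TTTCGCGC in 14.3% and 0.32%. Both strands were searched for every motif, and a match is a description of the letters in this window. The windows of head-to-head H2A and H2B genes can overlap, so the same site can be counted for both genes, as for the E2F motif of H2ac22 and H2bc22. Of the 3 promoters below, capitals mark the octamer, CCAAT and TATAAA on either strand. The H2ac8 window also spans the start of H2bc8, and the H2ac6 window reaches that of H2bc4. The H4c4 window holds no octamer.
H2ac8, chr13:23571171-23571470, minus strand: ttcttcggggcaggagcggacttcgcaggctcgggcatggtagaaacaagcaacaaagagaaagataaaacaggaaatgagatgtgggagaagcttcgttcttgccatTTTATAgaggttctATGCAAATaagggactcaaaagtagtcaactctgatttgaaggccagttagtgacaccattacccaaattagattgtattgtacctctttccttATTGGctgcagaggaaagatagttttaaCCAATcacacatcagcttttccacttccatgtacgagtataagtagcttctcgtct
H2ac6, chr13:23683910-23684209, minus strand: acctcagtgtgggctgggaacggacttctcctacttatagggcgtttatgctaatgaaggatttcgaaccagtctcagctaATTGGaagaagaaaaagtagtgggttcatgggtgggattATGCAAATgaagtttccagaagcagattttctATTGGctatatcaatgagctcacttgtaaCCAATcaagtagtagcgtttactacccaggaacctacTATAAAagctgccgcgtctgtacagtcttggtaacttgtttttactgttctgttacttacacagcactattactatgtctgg
H4c4, chr13:23581318-23581617, plus strand: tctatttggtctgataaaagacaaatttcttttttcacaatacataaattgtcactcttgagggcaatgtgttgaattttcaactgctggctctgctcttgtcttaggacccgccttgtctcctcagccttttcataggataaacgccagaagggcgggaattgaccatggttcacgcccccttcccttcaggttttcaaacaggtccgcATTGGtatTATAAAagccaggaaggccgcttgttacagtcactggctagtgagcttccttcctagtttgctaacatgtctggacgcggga

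The question put to these genes was whether their messages differ in LT-HSC when Prdm16 is deleted. No member was called: 0 of 37 were higher and 0 lower in Cko (limma, adjusted p below 0.05), where the shares called among the 13018 tested genes were 0.407% for higher and 0.292% for lower levels (0.699% in either direction). At an unadjusted p below 0.05, H2bc4 and H4c4 were higher (5.58% of all genes) and H1f4, H2ac8 and H2bc8 were lower (4.72% of all genes). Every Cko library lay below every WT library for 6 of 37 members (H1f4, H2ac4, H2ac8, H2bc8, H3c4 and H4c8), or 16.2% against a background of 8.01%, and above for 1 member (H2bc4), or 2.7% against 8.52%. The fitted difference was below 0 for 26 of 37 members (70.3%) and for 49.4% of all genes. Its median was -0.24 on the log2 scale over the present members and 0.00 over all genes. Of the 37, 4 reached 1 CPM in all 3 WT but not all 3 Cko libraries (H2ac11, H2ac22, H2bc3 and H3c6). Their differences were -0.55, -0.76, -0.63 and -1.10. The 2 with the reverse pattern, H2bc18 and H3c11, had 0.36 and 0.27. The sign in these members goes with the group that let them pass. Without Cko replicate 2 the members' median was -0.381, and on the log2(CPM + 5) scale, which shrinks the differences of low genes, it was -0.105. Under quantile normalization 30 of 37 differences were below 0, and the share over all genes in that fit is not given here. The median distance of the members from their WT mean was -0.44 in Cko replicate 1, -0.08 in replicate 2 and -0.26 in replicate 3, and 0.03, -0.11 and 0.08 in the WT libraries.

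**Figure D1:**
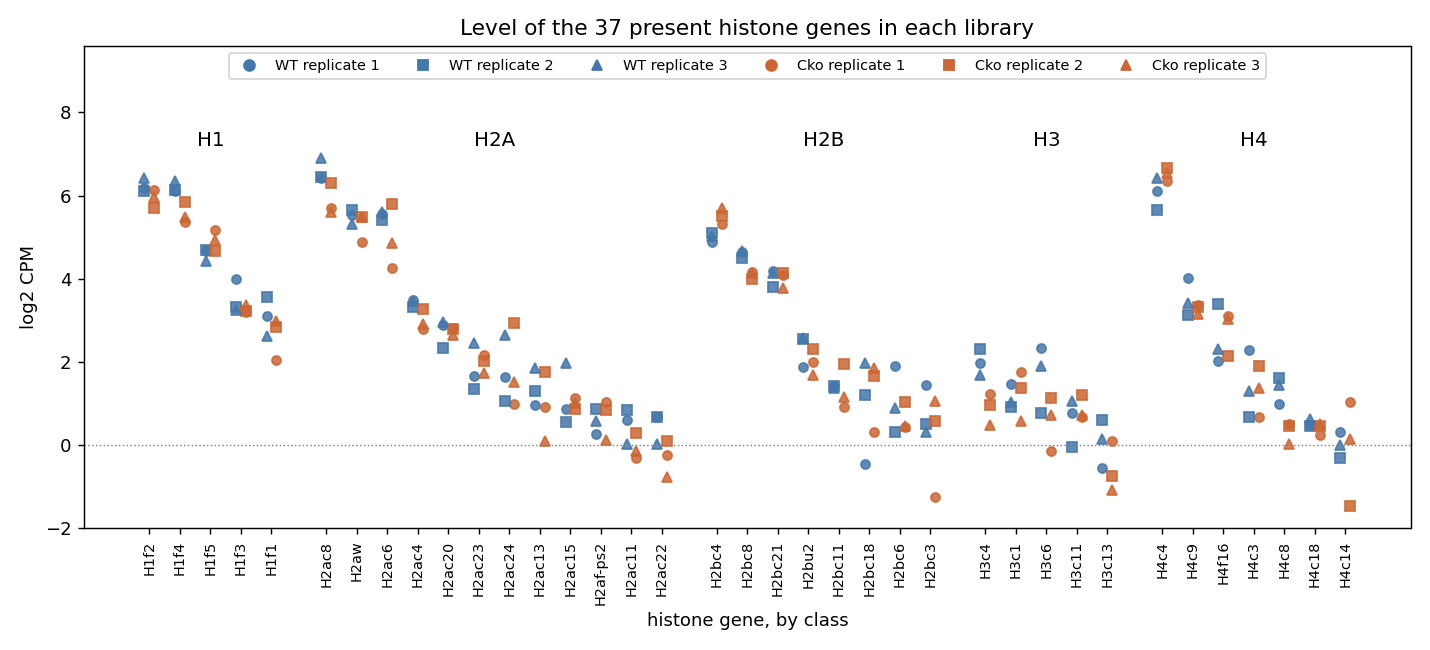
Level of the 37 present members in each library (log2 CPM, vertical axis), ordered within each class by mean level, with WT in blue, Cko in orange and a symbol for each replicate; the dotted line is 1 CPM. In H1, H2A, H2B and H4 a few members stand well above the rest, the H3 members are all low, and the groups overlap for most members.

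H1 genes encode the linker histones that bind where DNA enters and leaves the nucleosome. All 5 present genes lie in the chromosome 13 cluster, each encodes a protein of its own, and 4 of 5 had a difference below 0, with a median of -0.31. H1f4 (Hist1h1e, chr13:23621777-23622558) stood at 68.77, 69.74 and 82.02 CPM in the WT libraries and at 41.37, 57.75 and 44.49 CPM in the Cko libraries. Every Cko library lay below every WT library, a log2 difference of -0.63 (SE 0.16, limma, adjusted p = 0.177). The adjusted p was the lowest of any member. GENCODE exons of H1f4 overlap those of H2bc6 on the same strand, while the RefSeq spans of these genes do not overlap. Of the 50-base windows of H1f4, 68.0% occur once in the GENCODE transcripts.

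H1f2 (Hist1h1c) stood at 72.63, 69.39 and 85.23 CPM in WT and at 69.77, 51.71 and 62.09 CPM in Cko. The groups overlapped through Cko replicate 1, and the log2 difference was -0.31 (SE 0.15, limma, adjusted p = 0.514). H1f5 (Hist1h1b) stood at 25.34, 25.85 and 21.32 CPM in WT and at 35.82, 25.37 and 30.46 CPM in Cko. It was the H1 gene with a difference above 0, at 0.33 (SE 0.20, limma, adjusted p = 0.6), and Cko replicate 2 lay among the WT libraries. The ratio of H1f5 to H1f4, chosen after the values were seen and not tested, was 0.369, 0.371 and 0.26 in WT and 0.866, 0.439 and 0.685 in Cko.

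H1f3 (Hist1h1d) had 15.81, 9.901 and 9.447 CPM in WT and 9.145, 9.248 and 10.3 CPM in Cko, with WT replicate 1 apart from the other 5 libraries. H1f1 (Hist1h1a) had 8.587, 11.69 and 6.122 CPM in WT and 4.139, 7.128 and 7.827 CPM in Cko, and the groups overlapped. The sixth gene, the testis linker histone H1f6 (Hist1h1t), was not present and had reads in WT replicate 1 alone. The sum over the H1 genes was 191.6, 186.6 and 204.1 CPM in WT and 160.2, 151.2 and 155.2 CPM in Cko. The Cko sums all lay below the WT sums, at 0.801 of the WT mean, a description with no test.

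**Figure D2:**
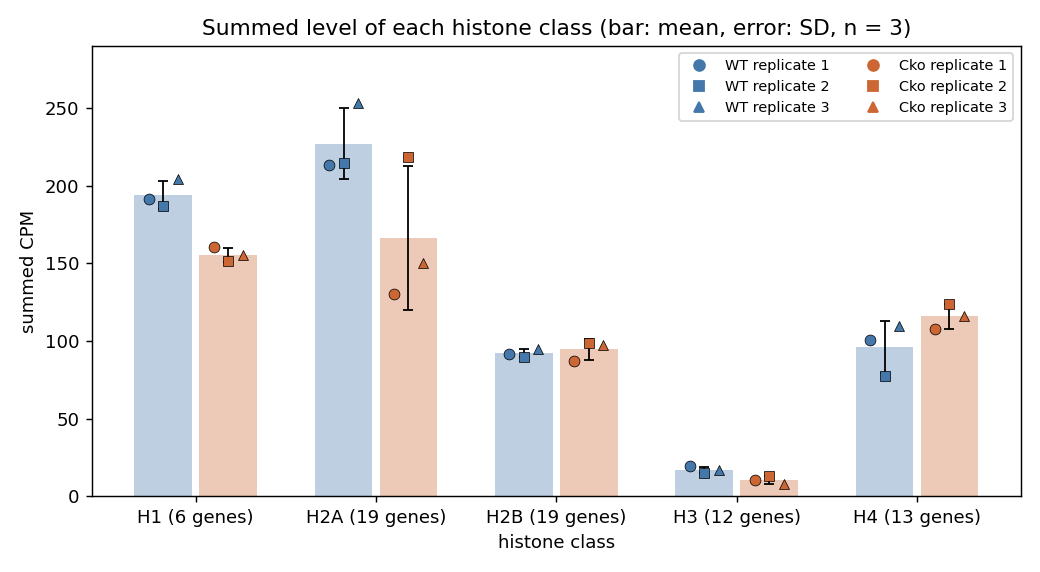
Summed CPM of all members of each class (vertical axis) in the 3 WT (blue) and 3 Cko (orange) libraries, with bars for the means and error bars for the SD (n = 3). The groups do not overlap for H1 and H3 and overlap for H2A, H2B and H4.

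H2A pairs with H2B in the dimers that complete a nucleosome. The class had 12 of 19 members present, and one H2A protein is encoded by 9 genes. Reads of such copies may be split between genes. The median H2A member had 32.4% of its 50-base windows to itself. A window counted as shared where any other GENCODE gene held it on either strand. Genes that overlap at the same place therefore count as well as copies, and the share of each was not measured. The exons of all 19 H2A genes also overlap a predicted gene on the opposite strand in GENCODE. Of these opposite-strand genes, 18 are annotated as miRNA and 3 as antisense. Whether the counting used strand is not given in the sources used here. H2ac8 (Hist1h2ae, chr13:23570663-23571220) stood at 85.62, 86.81 and 120.2 CPM in WT and at 52.32, 78.66 and 48.47 CPM in Cko. Every Cko library lay below every WT library, a log2 difference of -0.72 (SE 0.20, limma, adjusted p = 0.232), and 56.8% of its windows were its own.

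H2aw (Hist3h2a), from the small chromosome 11 cluster, stood at 46.13, 50.65 and 39.6 CPM in WT and at 29.33, 44.47 and 44.77 CPM in Cko. The groups overlapped, with a log2 difference of -0.22 (SE 0.20, limma, adjusted p = 0.743). H2ac6 (Hist1h2ac) stood at 47.02, 42.26 and 48.82 CPM in WT and at 19.15, 55.93 and 29.2 CPM in Cko. Cko replicate 2 was the highest of all 6 libraries and the other two Cko libraries were the lowest. H2ac4 (Hist1h2ab) had 11.11, 10.04 and 10.96 CPM in WT and 6.845, 9.69 and 7.53 CPM in Cko, and its groups did not overlap (log2 difference -0.43, SE 0.28, limma, adjusted p = 0.632).

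The other 8 present H2A genes lay below 7 CPM in both group means. H2ac20 (Hist2h2ac), H2ac23 (Hist1h2ao), H2ac24 (Hist1h2ap) and the pseudogene H2af-ps2 (Hist1h2al) had differences of 0.02 to 0.15. H2ac11 (Hist1h2ag), H2ac13 (Hist1h2ai), H2ac15 (Hist1h2ak) and H2ac22 (Hist1h2an) had differences of -0.76 to -0.13, and the groups overlapped in each of the 8. The H2A sum was 213.6, 214.3 and 253.3 CPM in WT and 130.1, 218.3 and 150.1 CPM in Cko. Cko replicate 2 lay inside the WT range. Without it the log2 ratio of the sums went from -0.48 to -0.70, and without Cko replicate 1 to -0.32.

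H2B genes had 8 of 19 members present. H2bc4 (Hist1h2bc, chr13:23684199-23692480) stood at 29.42, 34.34 and 32.61 CPM in WT and at 39.74, 45.61 and 51.63 CPM in Cko. It was the one member in which every Cko library lay above every WT library, a log2 difference of 0.50 (SE 0.17, limma, adjusted p = 0.309). No stem-loop was found within 100 bases of its stop codon in GENCODE. The search read spliced transcripts, and the exons of H2bc4 form 2 blocks there, so bases removed by splicing were not searched. H2bc8 (Hist1h2bg, chr13:23571400-23571863) stood at 24.82, 22.46 and 25.54 CPM in WT and at 17.86, 15.82 and 17.55 CPM in Cko, all below WT (log2 difference -0.51, SE 0.19, limma, adjusted p = 0.395).

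H2bc4 and H2bc8 encode the same protein. Their ratio, chosen after the values were seen and not tested, was 1.19, 1.53 and 1.28 in WT and 2.22, 2.88 and 2.94 in Cko. The Cko ratios all lay above the WT ratios. Other ratios were taken as well: H2ac6 to H2ac8, H2ac8 to H2bc8, H4c4 to H4c9 and H1f2 to H1f4. In each of these the groups overlapped. Every ratio printed in this text sets a gene with a higher mean in Cko over one with a lower mean, so its direction follows from that choice. H2bc21 (Hist2h2be), a longer message without a stem-loop close to its stop codon in GENCODE, had 18.26, 14 and 17.54 CPM in WT and 16.94, 17.47 and 13.76 CPM in Cko. Its difference was -0.05 (SE 0.23), and its sign turned without WT replicate 1 (0.03) or Cko replicate 3 (0.06).

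The other 5 present H2B genes were H2bc3 (Hist1h2bb), H2bc6 (Hist1h2be), H2bc11 (Hist1h2bj), H2bc18 (Hist2h2bb) and H2bu2 (Hist3h2ba), all below 6 CPM in both group means, and the groups overlapped in each. Their differences ran from -0.63 in H2bc3 to 0.36 in H2bc18, and H2bc18 has no 50-base window of its own. The H2B sum was 91.83, 89.79 and 95.04 CPM in WT and 87.04, 98.91 and 97.64 CPM in Cko, with overlapping groups. The group means differed by less than the SD of the Cko libraries (94.5 ± 6.52 CPM against 92.2 ± 2.65 CPM in WT, SD, n = 3).

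**Figure D3:**
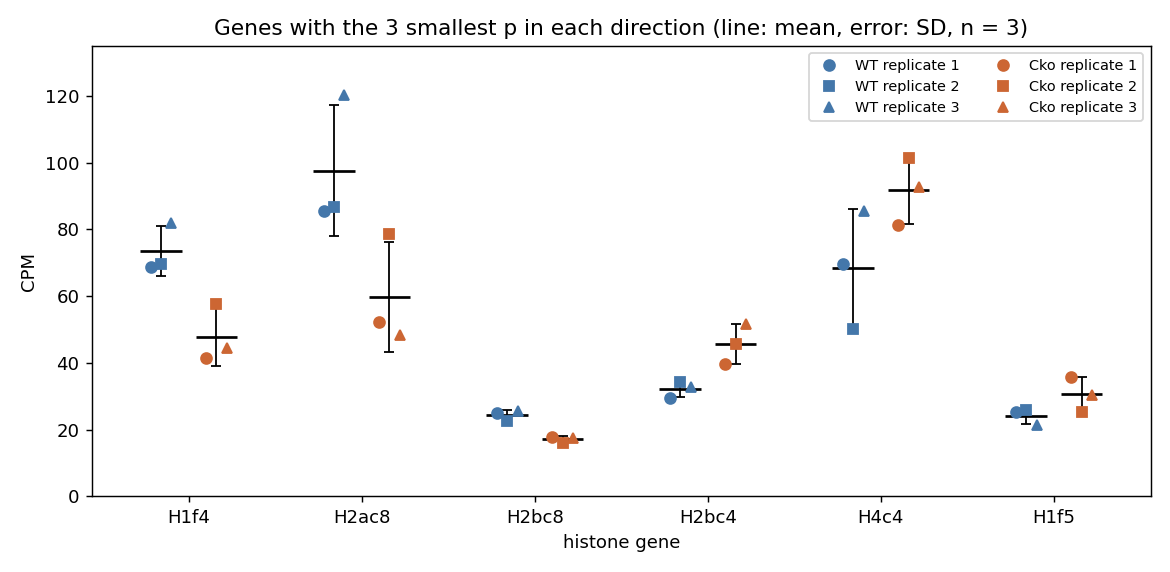
CPM (vertical axis) of the members with the 3 smallest p-values in each direction, in WT (blue) and Cko (orange) libraries, with the mean as a line and the SD as error bars (n = 3). H1f4, H2ac8 and H2bc8 are lower and H2bc4 is higher in every Cko library, while H4c4 and H1f5 overlap between groups.

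H3 carries many of the modifications of chromatin, and its replication-dependent genes were the lowest of the classes here. Of 12 members 5 were present, the highest mean being 4.02 CPM. H3c4 (Hist1h3d) had 3.885, 4.964 and 3.21 CPM in WT and 2.327, 1.933 and 1.373 CPM in Cko. The groups did not overlap, and the log2 difference was -1.10 (SE 0.52, limma, adjusted p = 0.498). H3c1 (Hist1h3a) had 2.747, 1.872 and 2.041 CPM in WT and 3.382, 2.586 and 1.488 CPM in Cko, and the groups overlapped. Its difference of 0.10 turned to -0.01 under quantile normalization or without WT replicate 2, and to -0.16 without Cko replicate 1.

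H3c6 (Hist1h3e) had 5.048, 1.682 and 3.715 CPM in WT and 0.8928, 2.166 and 1.648 CPM in Cko, a log2 difference of -1.10 with an SE of 0.67 and overlapping groups. H3c11 (Hist1h3i) had a difference of 0.27 and H3c13 (Hist2h3b) of -0.65, both with overlapping groups, and H3c13 has no 50-base window of its own. H3c14 (Hist2h3c1), which was not present, had 74, 35 and 72 reads in the WT libraries and 0, 15 and 0 in the Cko libraries. It too has no 50-base window of its own. The sum over all 12 H3 genes was 19.2, 15.08 and 16.94 CPM in WT and 10.47, 12.95 and 7.598 CPM in Cko, with the Cko sums all below the WT sums at 0.606 of the WT mean. Over the 5 present members the ratio was 0.684.

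H4 is a single protein, encoded by 13 genes in the matrix of which 7 were present. H4c4 (Hist1h4d, chr13:23581568-23581969) stood at 69.53, 50.27 and 85.41 CPM in WT and at 81.33, 101.3 and 92.71 CPM in Cko. Only Cko replicate 1 lay below the highest WT library, and the log2 difference was 0.45 (SE 0.19, limma, adjusted p = 0.441). H4c9 (Hist1h4i) had 16.08, 8.789 and 10.59 CPM in WT and 10.33, 9.97 and 8.857 CPM in Cko. Its groups overlapped, and the difference of -0.24 turned to 0.01 without WT replicate 1. H4c8 (Hist1h4h) had 1.955, 3.065 and 2.729 CPM in WT and 1.407, 1.351 and 1.007 CPM in Cko, all below WT, with a log2 difference of -1.02 (SE 0.62, limma, adjusted p = 0.607).

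H4c3 (Hist1h4c), H4c14 (Hist2h4), H4c18 (Hist1h4n) and H4f16 (Hist4h4), the single gene of the chromosome 6 locus, had differences of -0.13 to 0.18 with overlapping groups. The H4 sum was 100.5, 77.28 and 109.9 CPM in WT and 107.6, 123.6 and 116.2 CPM in Cko, a ratio of 1.21 with overlapping groups. By mean CPM H4c4 was the most abundant member in Cko, and H2ac8 in WT. The ratio of H4c4 to H2ac8, chosen after the values were seen and not tested, was 0.812, 0.579 and 0.71 in WT and 1.55, 1.29 and 1.91 in Cko.

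The sum over all 69 members was 616.7, 583 and 679.3 CPM in WT and 495.5, 605 and 526.7 CPM in Cko. Cko replicate 2 lay inside the WT range, and the ratio of the means was 0.866. Per kilobase of exon, H2ac8 stood at 138.6 CPM per kb in WT and 84.97 in Cko, H4c4 at 60.11 and 80.65, H1f2 at 48.56 and 39.23, and H1f4 at 38.09 and 24.8. These lengths are GENCODE exons with the longest 3′ ends, which for H1f3 came to 7425 bases, so a level per length depends on which ends the messages used. It also depends on the exons that were counted. The matrix carries NCBI gene IDs, and its exon annotation is not known here. RefSeq spans can be much shorter: that of H4c4 is chr13:23581568-23581969, where its GENCODE exons cover 1138 bases. The order of genes by level per kb was not checked with RefSeq lengths.

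**Figure D4:**
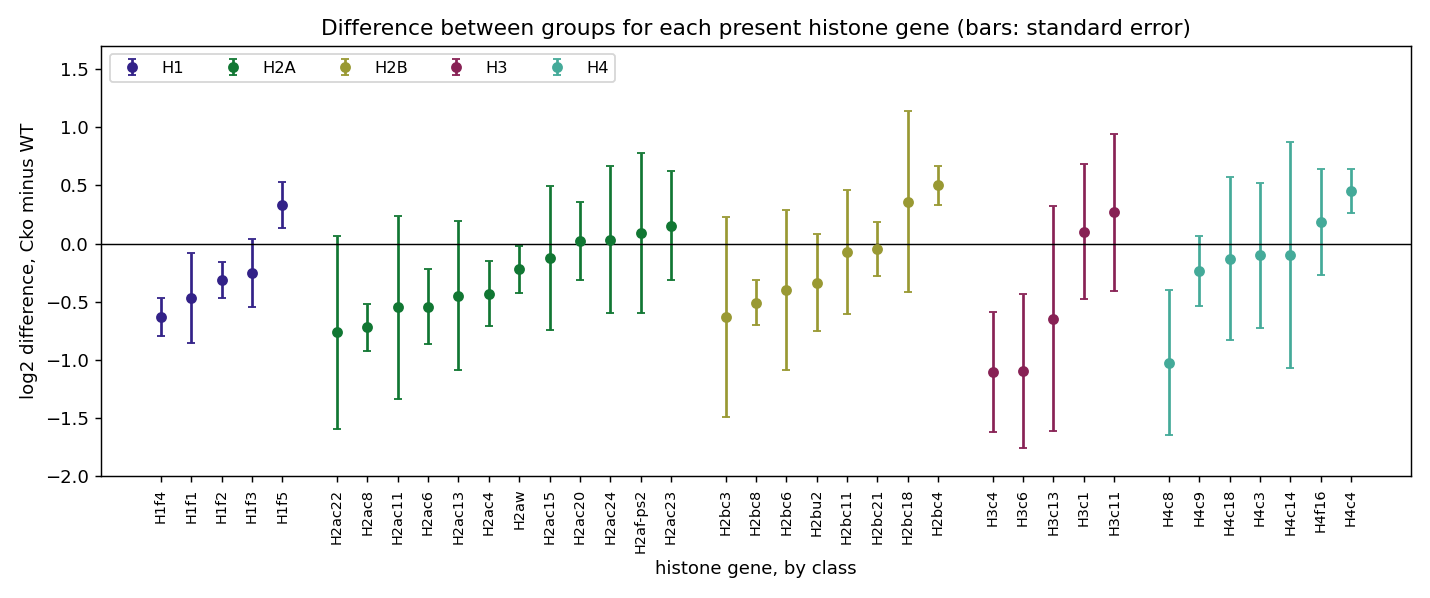
Fitted log2 difference (Cko minus WT, vertical axis) of each present member with its standard error, by class. Differences run from -1.10 to 0.50, and 26 of 37 lie below 0.

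H2A and H2B genes lay head to head, with less than 500 bases between their starts, in 12 pairs, 163 to 280 bases apart. Both genes were present in 4 pairs. H2ac8 and H2bc8, 179 bases apart, differed by -0.72 and -0.51. H2ac6 and H2bc4, 239 bases apart, differed by -0.54 and 0.50. Their ratio, H2bc4 to H2ac6, was 0.626, 0.813 and 0.668 in WT and 2.07, 0.816 and 1.77 in Cko, with Cko replicate 2 close to the highest WT library. H2ac11 and H2bc11 differed by -0.55 and -0.07, and H2ac20 and H2bc21 by 0.02 and -0.05. The sign was shared in 2 of the 4 pairs, and whether the partners of a pair differed from each other was not tested.

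Members were also set apart by their annotated 3′ ends. A stem-loop with a GENCODE transcript running more than 100 bases past it was found in 23 members, of which 16 were present. A stem-loop with no such end was found in another 23, of which 10 were present. The first group had a median of 4.02 CPM in WT (3.22 CPM per kb of GENCODE exon) and the second 1.43 CPM (2.94 CPM per kb). Whether the counting covered the longer GENCODE ends is not known here. The fitted difference was below 0 in 14 of the 16 (median -0.33) and in 6 of the 10 (median -0.10), beside 49.4% of all genes. Of the present members without a stem-loop near the stop codon, 3 of 4 had a difference below 0, and of those whose ends were too short to search, 3 of 6. With the 22 members that had at least 50% of their 50-base windows to themselves, 17 differences lay below 0 and the median was -0.28. For the 21 with no exon overlap the median was -0.13.

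Of the 32 members that were not present, 23 had no library at 1 CPM and 2 of these, H2ac10 (Hist1h2af) and H2bc1 (Hist1h2ba), had no read at all. The 9 that reached 1 CPM in some library were H2ac7, H2ac21, H2bc12, H2bc14, H2bc15, H3c3, H3c7, H3c8 and H3c14. H2bc14 (Hist1h2bm) had 2.573, 2.062 and 0.7796 CPM in WT and 0.3517, 0.6522 and 0.206 CPM in Cko, all Cko libraries below WT. H3c8 (Hist1h3g) had 1.039, 0.9494 and 0.963 CPM in WT and 0.02705, 0.6988 and 0.1602 CPM in Cko. Fitted with no filter on low values, 49 of 69 members had a difference below 0, with a median of -0.34 and no call. The share below 0 and the median over all genes of that fit are not given here, so these values have no background beside them.

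The replacement histones, most of which are made throughout the cell cycle from polyadenylated messages (H2afx also gives a stem-loop message), had 0 of 12 tested genes called and a median difference of -0.12. H3f3b, which encodes H3.3, went from 48.0 ± 5.63 to 32.7 ± 4.28 CPM (SD, n = 3), a log2 difference of -0.55 (SE 0.17, limma, adjusted p = 0.281). H3f3a, which encodes the same protein, had a difference of -0.16 (SE 0.07), and H2afy, which encodes macroH2A, of -0.12 (SE 0.06). The 12 genes summed to 2819 to 2983 CPM in WT and 2701 to 2783 CPM in Cko.

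The factors that process and degrade histone messages had 0 of 22 genes called, a median difference of -0.01 and no gene whose groups did not overlap. The 3 with the smallest p were Cstf3, a cleavage stimulation factor (-0.17, SE 0.15), Lsm11, of the U7 particle (-0.35, SE 0.32), and Casp8ap2, or FLASH, which joins U7 at the histone 3′ end (0.20, SE 0.21). Slbp itself, named after its values were seen, stood at 247.4 ± 12.8 CPM in WT and 248.1 ± 20.8 CPM in Cko (SD, n = 3). Regulators of histone gene transcription had 0 of 15 called and a median of -0.09. Among them Kat2a, a histone acetyltransferase, had a difference of 0.42 (SE 0.12, limma, adjusted p = 0.253), Ccne1, cyclin E, of 0.67 (SE 0.27), and Trrap, a scaffold of acetyltransferase complexes, of 0.24 (SE 0.12).

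Histone chaperones and assembly factors had 0 of 24 called and a median of 0.05. Rbbp4, a subunit of the chromatin assembly factor CAF-1, had a difference of 0.27 (SE 0.08, limma, adjusted p = 0.253), Hat1, which acetylates new H4, of 0.29 (SE 0.11), and Nasp, a histone chaperone, of 0.24 (SE 0.11). Their summed level was 5364 to 5450 CPM in WT and 5515 to 5648 CPM in Cko. DNA replication genes had 0 of 31 called and a median of 0.04. The helicase subunit gene Mcm7 had a difference of -0.18 (SE 0.07), the origin-binding Orc1 of 0.55 (SE 0.21) and Mcm4 of 0.35 (SE 0.14), and the summed level overlapped (5790 to 6136 CPM in WT, 5971 to 6266 CPM in Cko).

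Genes of mitosis and proliferation had 0 of 20 called and a median of -0.07. Birc5, survivin, went from 127.2 ± 5.91 to 101.3 ± 3.81 CPM (SD, n = 3), a log2 difference of -0.33 (SE 0.10, limma, adjusted p = 0.281). Kif20a, a kinesin of cytokinesis, had a difference of -0.39 (SE 0.15) and Top2a, a topoisomerase, of -0.25 (SE 0.10). The sum over these genes was 2638 to 2667 CPM in WT and 2369 to 2552 CPM in Cko. Neither this sum nor those of the other lists was tested.

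**Figure D5:**
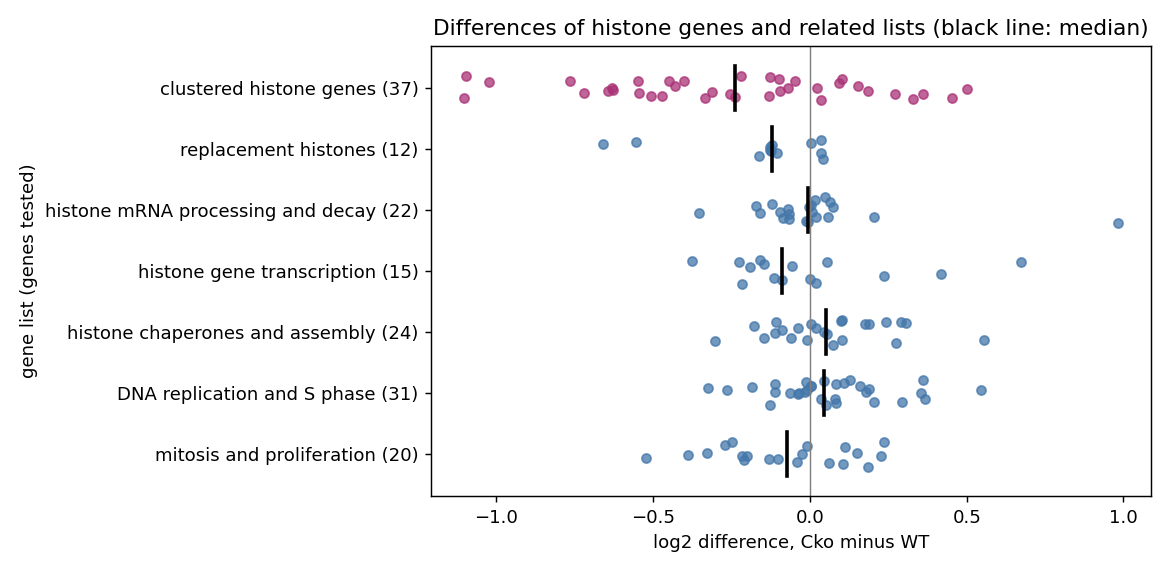
Fitted log2 difference (Cko minus WT, horizontal axis) of the genes tested in the clustered histone list and in the 6 related lists, one point per gene with the median as a black line. The histone median is -0.24 and the other medians lie between -0.12 and 0.05, with no gene called in any list.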

How the data were processed

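The authors deposited one table of log2 CPM values, with FastQC, HISAT2, featureCounts, limma and mm10 named in the submitters' processing notes. The sources used here give no versions, strand setting or treatment of reads with several matches. These log2 values carry 0.5 reads and an effective library size. Undoing this gave whole reads for 100.0% of values within 0.01, and CPM in the text are those reads divided by the same sizes. Genes at 1 CPM in 3 of 6 libraries (13018) entered lmFit and a trended eBayes without a block (limma 3.58.1, R 4.3.3), with Benjamini-Hochberg adjustment and calls at an adjusted p below 0.05. The fit was also run on simulated data with known changes. The share of changes recovered is not given here, so how small a difference the fit could call is left unstated. Names and promoters came from RefSeq GRCm38.p6 (25275 gene IDs matched, 1904 unmatched), exons from GENCODE M21. Every library pair differed by more than sampling noise. Members and lists were chosen with earlier results of these data known. Per-library values are given for the 2 members of each class with the highest mean log2 CPM, the 3 smallest p-values in each direction and every present H1 gene; those of H2ac4, H2ac6, H2bc14, H2bc21, H3c6, H3c8, H3c14 and H4c8 were added after their values were seen. The summed B and plasma cell marker list is not reported here. Figures used matplotlib 3.10.9 in Python 3.11.15.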

Additional observations from a re-analysis of the deposited data

How the results depend on the processing

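No histone member, and no gene of the 6 related lists, was called under any of 23 alternative fits, and the lowest adjusted p of any member ran from 0.105 to 0.468. The members' median stayed below 0, from -0.381 without Cko replicate 2 to -0.105 with log2(CPM + 5). Over 18 single genes and 410 alternatives, 399 kept direction and call and 11 reversed. With each library left out in turn, H2bc21 ran from -0.16 to 0.06 (0.03 without WT replicate 1), H3c1 from -0.16 to 0.43 and H4c9 from -0.43 to 0.01, and H3c1 was -0.01 under quantile normalization. Over all genes, 53 higher calls became 19 with no filter, 105 with log2(CPM + 1), 104 with log2(CPM + 5) and 20 to 66 when each library was left out in turn; with the genes of all 6 kept they became 28, 22 and 20 without Cko replicates 1, 2 and 3. The 38 lower calls became 14 with no filter, 15 with no trend, 59 with log2(CPM + 1), 64 with log2(CPM + 5) and 22 to 31 when each library was left out in turn; with the genes of all 6 kept they became 25 and 22 without WT replicates 2 and 3, and 24, 19 and 23 without Cko replicates 1, 2 and 3. The cause was not tested, except that leaving out a library also leaves fewer samples. Keeping the genes of all 6 libraries in those fits, and restricting the members by unique windows or exon overlap, were chosen after seeing the data.

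Replicate numbers did not pair the libraries: same-numbered WT and Cko libraries had correlations of deviations of -0.01, -0.021 and 0.02. With the replicate block, 23 genes were lower and no member was called (lowest adjusted p 0.3). The planned edgeR and DESeq2 fits on the recovered reads were not run; the fit made on those reads was voom in limma. Without molecular identifiers the reads of low members are not counts of separate molecules. Reads of near-identical copies may be split between members. In all, 5 members have no 50-base window of their own, a count in which genes overlapping at the same place weigh like copies elsewhere.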
